A study of Mus musculus with 32 samples.

Results

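The synovium of mice in the group labelled MMS D7 was compared with the synovium of mice in the group labelled MMS D3. The members were all 1178 genes of the synovium table in the 3 MMS D7 and 3 MMS D3 samples, which are 6 of the 32 samples of the series and 6 of its 18 synovium samples. All samples came from C57BL/6 mice, and RNA sequencing was done on whole dissected tissue. The other synovium groups were Control, MMS D14, R1 and R2, with 3 samples each. MMS is the name of a model in the labels. They do not spell it out, give no unit for the number after D, and state neither age nor sex, any other treatment, nor whether tissue was pooled. Nothing in them ties a replicate to its own animal, so the p-values measure no more than the spread between these samples. Levels are FPKM, fragments scaled to transcript length and to all mapped fragments, as deposited. Changes are log2 ratios of FPKM + 1, MMS D7 minus MMS D3, from limma fitted on all 18 synovium samples. A gene was called where its p, adjusted by the method of Benjamini and Hochberg over all 1178 genes, was under 0.05.

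The synovium is the soft lining of a joint. Fibroblasts and macrophages form its surface layer, and beneath them lie blood vessels, loose connective tissue and fat. After joint injury, synovial fibroblasts multiply and lay down collagen and other matrix proteins, while the fat beneath the lining can shrink and be replaced by fibrous tissue.

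The 1178 genes are a selection whose rule no source used here states. Of them, 98.05% differed at least 1.5-fold between the means of MMS D14 and Control, against 33.4% between MMS D7 and MMS D3. Sequencing depth is unknown, and the listed values summed to between 70104.5 and 132996 FPKM per synovium sample. In 5 synovium libraries, replicate 3 of every group except R1, the predicted gene Gm2023 was at 1.71 to 3.36 FPKM, against 12.6 to 56.2 in the others. Each group compared here holds 1 of these libraries, and counts are also given with all 5 left out. The table held 6 of 15 listed genes of synovial lining fibroblasts, and the labelled tissue could be checked on those only; Prg4, the lubricin gene, was not analysed here. Each of the T and NK cell and keratinocyte lists had 0 measured members.

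From MMS D3 to MMS D7 all 12 measured members of the collagen list and 12 of 22 measured matricellular genes rose. In the same comparison 21 of 39 measured fat cell genes fell. In all, 358 of 1178 genes were called (30.4%), of which 142 were higher (12.1%) and 216 lower (18.3%) at MMS D7. An unadjusted p under 0.05 was reached by 540 genes. In 486 genes (41.3%) the 3 MMS D7 samples lay entirely above or below the 3 MMS D3 samples, and 322 of these (27.3% of all genes) were called. Most calls were of moderate size, and 47 higher and 22 lower genes changed by at least 1 on the log2 scale. The median change of all genes was -0.22, so a typical listed gene was slightly lower at MMS D7. Once each sample was centred on its own median, the split turned to 190 higher (16.1%) and 112 lower (9.51%), with 254 of the 358 genes still called. Since the listed genes are a selection, their median may itself differ between groups. Neither split is therefore taken as the corrected one. With only the 2 groups fitted, 116 genes were called. With the 5 libraries left out, 186 were called, 88 higher (7.47%) and 98 lower (8.32%). All 358 called genes kept their sign in that fit, and 163 were called again. Because that fit reuses samples on which the genes were called, the kept signs are no independent check. Single libraries moved the count as well: 597 genes were called without MMS D3 replicate 1, 172 without MMS D3 replicate 2, 147 without MMS D3 replicate 3 and 178 without MMS D7 replicate 3. In bulk tissue, fewer cells of a type and less RNA per cell cannot be told apart, and this holds for every gene below.

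The largest named rise was that of Cthrc1, a secreted protein of fibroblasts in healing tissue. It lies on chromosome 15 from 39076932 to 39087121 (GRCm38, plus strand). Its levels were 59.9, 42.2 and 13.7 FPKM in MMS D3 replicates 1 to 3 and 246, 186 and 297 FPKM in MMS D7. Every MMS D7 sample was at least 3 times as high as any MMS D3 sample, and the rise was 2.83 ± 0.359 (SE, n = 3 per group; adjusted p = 0.000297). Control samples averaged 6.24 ± 1.46 FPKM (SD, n = 3), below both groups. Fmod encodes fibromodulin, a small proteoglycan that binds collagen fibrils. It stood at 20.6, 15.1 and 6.07 FPKM in MMS D3 and 78.2, 51.4 and 59.7 FPKM in MMS D7. The groups did not overlap, and the rise was 2.23 ± 0.503 (adjusted p = 0.00531, and 0.0622 with the 5 libraries left out). Tnc encodes tenascin C, a matrix protein of wounds. Its levels were 27.1, 7.97 and 5.88 FPKM in MMS D3 and 43.9, 39.5 and 49.5 FPKM in MMS D7, a rise of 1.91 ± 0.365 (adjusted p = 0.00215). MMS D3 replicate 1 was well above the other MMS D3 samples for Tnc but still under all MMS D7 samples.

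The thrombospondins Thbs4 and Thbs3, adhesive matrix glycoproteins, rose too. Thbs4 was at 48.1, 55.2 and 38.8 FPKM in MMS D3 and 132, 119 and 220 FPKM in MMS D7. The lowest MMS D7 sample was above the highest MMS D3 sample, with a change of 1.67 (adjusted p = 0.000364). Thbs3 rose by 1.44 (adjusted p = 0.000364). P4ha3, a subunit of the prolyl hydroxylase that modifies collagen chains, rose by 1.87 from 12.6, 9.04 and 3.84 FPKM to 27.5, 32.8 and 31.99 FPKM (adjusted p = 0.000364). Angptl1, a secreted angiopoietin-like protein, went from 8.60, 14.6 and 5.83 FPKM to 33.5, 30.5 and 26.9 FPKM, a rise of 1.63 (adjusted p = 0.00044). Antxr1, a cell surface receptor for matrix proteins, rose by 1.54 (adjusted p = 0.000308). Asporin, the proteoglycan encoded by Aspn, rose by 1.43 (adjusted p = 0.000685). Clec11a, a secreted growth factor for bone-forming progenitors, rose by 1.38 (adjusted p = 0.0117), a call that was lost without MMS D3 replicate 3 (adjusted p = 0.0504). By the naming rule, the groups of none of these genes overlapped. Crabp2, which carries retinoic acid inside cells, was singled out after its values were seen, since its level was too low for the naming rule. It stood at 6.16, 2.62 and 6.21 FPKM in MMS D3 and 30.01, 24.2 and 29.8 FPKM in MMS D7, a rise of 2.34 (adjusted p = 0.000308).

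The 12 largest named falls included 5 genes of the adipocyte list, namely Cyp2e1, Retsat, Retn, Ces1d and Pnpla2. Cyp2e1, a cytochrome P450 enzyme, was at 573, 1089 and 1004 FPKM in MMS D3 and 430, 456 and 143 FPKM in MMS D7. The groups did not overlap, MMS D7 replicate 3 was the lowest sample, and Cyp2e1 fell by 1.49 ± 0.384 (SE, n = 3 per group; adjusted p = 0.0107). That call was lost without MMS D3 replicate 2 or without MMS D7 replicate 3 (adjusted p up to 0.0571). Retsat encodes retinol saturase, an enzyme of vitamin A metabolism. It was at 44.5, 50.6 and 76.7 FPKM in MMS D3 and 21.02, 22.97 and 25.07 FPKM in MMS D7. Retsat fell by 1.24 ± 0.205 (adjusted p = 0.000834) with wide separation of the groups, and the Control mean of 31.8 FPKM lay between them. Pnpla2 encodes adipose triglyceride lipase, which starts the breakdown of stored fat. It fell by 1.001 ± 0.189 (adjusted p = 0.00202), from 736, 917 and 936 FPKM to 470, 529 and 317 FPKM, and all MMS D7 samples were below all MMS D3 samples.

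Klf15, a transcription factor that responds to glucocorticoids, fell by 1.24 (adjusted p = 0.00232), from 17.6, 28.03 and 29.2 FPKM to 11.4, 12.8 and 6.29 FPKM. Rasd1, a small GTPase induced by glucocorticoids, fell by 1.08 (adjusted p = 0.00888, and 0.11 with the 5 libraries left out). Ifi27l2a, an interferon-inducible gene, was at 1545, 2152 and 1829 FPKM in MMS D3 and 958, 1037 and 572 FPKM in MMS D7. It fell by 1.14 (adjusted p = 0.00325) with no overlap of the groups. Retn, the fat cell hormone resistin, fell by 1.12 (adjusted p = 0.0107, 0.0551 with the 5 libraries left out and 0.0593 without MMS D3 replicate 3). Ces1d, a carboxylesterase that hydrolyses lipids, fell by 1.09 (adjusted p = 0.0204), and Cdo1, the enzyme that oxidises cysteine, fell by 1.04 (adjusted p = 0.0107). Both calls were lost with the 5 libraries left out (0.0611 and 0.0547) and without MMS D3 replicate 2, MMS D3 replicate 3 or MMS D7 replicate 3 (up to 0.0984 and 0.0621). Tmem179, a membrane protein, fell by 1.05 (adjusted p = 0.00826, and 0.0504 without MMS D3 replicate 3). The complement component gene C7 fell by 1.32 (adjusted p = 0.0394) and the eosinophil attractant Ccl11 by 1.13 (adjusted p = 0.0365). These were the 2 named genes whose call centring ended. After centring, their adjusted p was 0.0649 and 0.0648, and with the 5 libraries left out it was 0.0809 and 0.163. Neither was called without MMS D3 replicate 2, MMS D3 replicate 3 or MMS D7 replicate 3, and C7 also not without MMS D7 replicate 1, with adjusted p up to 0.149 and 0.185. C7 was also not called with a pseudocount of 0.1 (0.0521).

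**Figure D1:**
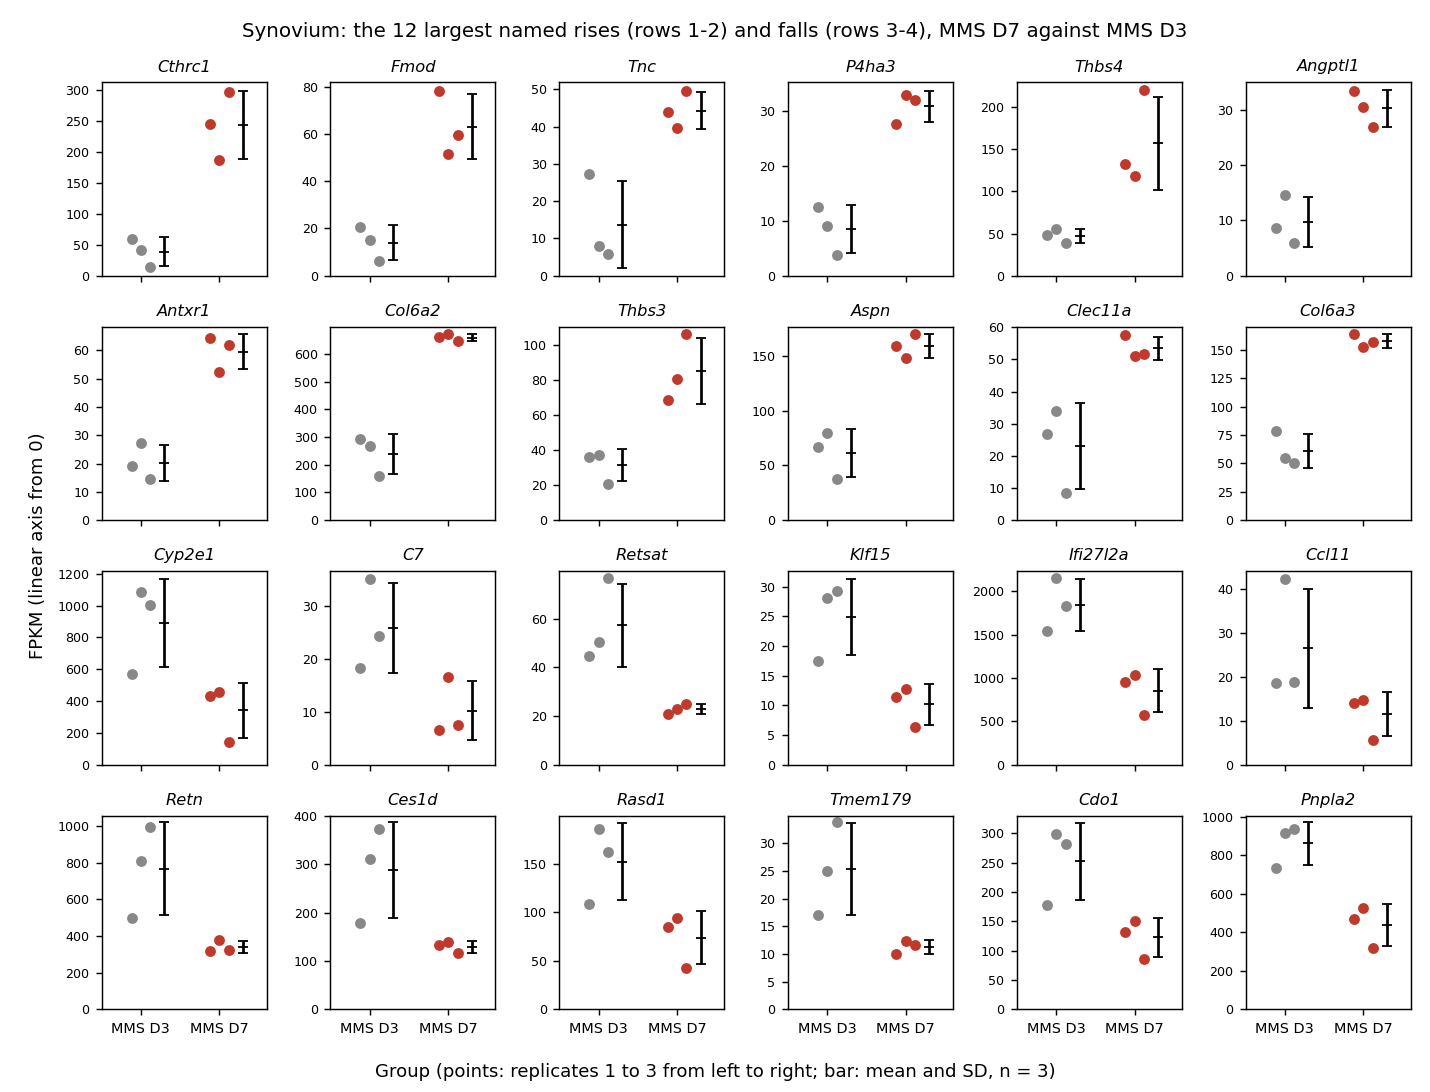
FPKM on linear axes from 0 in each MMS D3 (grey) and MMS D7 (red) replicate for the 12 largest named rises in the upper panels and the 12 largest named falls in the lower panels, with mean and SD bars (n = 3). No panel has overlapping groups, because the naming rule required this. MMS D3 replicate 3 is the lowest of its group in all 12 rises, and Thbs4 reaches 220 FPKM in MMS D7 replicate 3.

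Collagens moved together. Of 28 listed fibrillar and fibril-associated collagens and collagen VI chains, 12 were measured, and all 12 measured members rose, with no overlap of the groups in any of them. Their changes ran from 0.76 to 1.5004 with a median of 1.19, against a median of -0.22 and 12.1% called higher among all genes. In 41.3% of all genes the groups did not overlap. The 12 were called after centring too and with the 5 libraries left out, and 11 or 12 were called when any 1 library was left out. Their summed level was 3624 to 5478 FPKM in MMS D3 and 9361 to 11599 FPKM in MMS D7, against 2751 to 3193 FPKM in Control. Col3a1, a chain of the fibrils laid down early in repair, was at 1681, 1786 and 1335 FPKM in MMS D3 and 3444, 3217 and 3989 FPKM in MMS D7. It rose by 1.15 ± 0.168 (adjusted p = 0.000364), and the Control mean was 1025 FPKM. Col1a1, the main chain of mature fibrils, was at 1588, 1199 and 769 FPKM and then 2851, 2368 and 2827 FPKM, a rise of 1.23 ± 0.269 (adjusted p = 0.00445). The spread within MMS D3 was wide for Col1a1, but its highest sample was under the lowest MMS D7 sample. Basement membrane genes, which form a separate list, had 2 measured members with changes of -0.065 and 0.46. Of these, 1 was called higher, and 0 were with the 5 libraries left out.

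Collagen VI forms the beaded filaments around cells, and its 3 measured chains rose by similar amounts. Col6a2 was at 294, 267 and 159 FPKM in MMS D3 and 659, 671 and 644 FPKM in MMS D7, a rise of 1.5004 (adjusted p = 0.00101). Col6a3 was at 78.2, 54.8 and 50.7 FPKM and then 165, 152 and 157 FPKM, a rise of 1.38 ± 0.186 (adjusted p = 0.000308). Col6a1 rose by 1.29 (adjusted p = 0.000364). For all 3 chains the MMS D7 samples were close to each other and clear of MMS D3. Col16a1, a fibril-associated collagen, rose by 1.34 (adjusted p = 0.000364).

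Enzymes that modify and cross-link collagen did not move as one. Of 11 measured members, 5 rose, beside 12.1% of all genes, and 0 fell, with a median of 0.46. With the 5 libraries left out 4 rose. Without MMS D3 replicate 1, 9 rose and 1 fell, and without MMS D7 replicate 2, 5 rose and 1 fell. The lysyl oxidase-like enzyme Loxl2 was at 49.9, 28.6 and 25.2 FPKM in MMS D3 and 84.5, 85.6 and 88.2 FPKM in MMS D7, a rise of 1.35 (adjusted p = 0.00186). Lox, the founding lysyl oxidase, was at 190, 137 and 184 FPKM in MMS D3 and 150, 121 and 199 FPKM in MMS D7. The Lox groups overlapped, with a change of -0.13 (adjusted p = 0.574), while both were far above the Control mean of 17.2 FPKM. The difference between Loxl2 and Lox was not tested. P4ha2, another prolyl hydroxylase subunit, rose by 0.93 (adjusted p = 0.00325). Plod2, which hydroxylates collagen lysines, rose by 1.03 (adjusted p = 0.00465, and 0.0541 with the 5 libraries left out). Adamts14, which trims procollagen, rose by 1.12 (adjusted p = 0.00325).

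Matricellular and injury matrix genes encode proteins that signal to cells from the matrix. Of 22 measured, 12 rose, beside 12.1% of all genes, and 0 fell. All 22 changes were positive, and the median was 0.68. With the 5 libraries left out 6 rose, and 13 rose after centring. The count was 8 without MMS D3 replicate 3 or MMS D7 replicate 3 and 16 without MMS D3 replicate 1. Besides Cthrc1, Tnc, Thbs3 and Thbs4, Ptn (pleiotrophin, a heparin-binding growth factor) rose by 1.27 from 2.48, 4.92 and 3.14 FPKM to 8.93, 8.44 and 11.7 FPKM (adjusted p = 0.00304). Postn encodes periostin, a marker of activated fibroblasts, and was singled out after its values were seen. It was at 346, 371 and 198 FPKM and then 722, 522 and 1058 FPKM, a rise of 1.32 (adjusted p = 0.00467, and 0.0823 with the 5 libraries left out). Spp1, osteopontin, was at 167, 42.7 and 27.7 FPKM in MMS D3 and 187, 73.2 and 218 FPKM in MMS D7. The Spp1 groups overlapped and it was not called (1.29 ± 0.672, adjusted p = 0.14), with both groups above the Control mean of 2.85 FPKM. Ctgf, a TGF-beta target, changed least in the list, with a value of 0.08 (adjusted p = 0.695).

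Small leucine-rich proteoglycans coat and space collagen fibrils. Of 5 measured, 3 rose and 1 fell. Among all genes 12.1% were called higher and 18.3% lower, and every list in this paragraph stands beside these shares. Lumican, Lum, rose by 1.23 from 225, 354 and 218 FPKM to 729, 532 and 582 FPKM (adjusted p = 0.000871), and Fmod and Aspn are given above. Bgn, biglycan, overlapped between groups and was not called (0.69, adjusted p = 0.0618; 0.0322 after centring). Podocan, Podn, fell by 0.55 (adjusted p = 0.0454), but was not called after centring (0.115) or with the 5 libraries left out (0.0937). Nor was Podn called without MMS D3 replicate 2, MMS D3 replicate 3 or MMS D7 replicate 3 (up to 0.22). Elastic fibre and microfibril genes numbered 8, of which 4 rose and 0 fell with a median of 0.59. Their count was 7 without MMS D3 replicate 1, 1 without MMS D3 replicate 3, and 2 without MMS D7 replicate 2 or replicate 3. The TGF-beta binding protein Ltbp1 rose by 0.62 (adjusted p = 0.00325) and the microfibril protein Mfap2 by 0.92 (adjusted p = 0.00887, and 0.0504 without MMS D3 replicate 3). The 4 measured tendon genes all rose, with a median of 1.47, and 2 did so with the 5 libraries left out. They include Fmod and Thbs4, which other lists hold as well. Scx, a transcription factor of tendon cells, rose by 1.27 from 8.44, 5.46 and 3.32 FPKM to 12.02, 13.02 and 19.3 FPKM (adjusted p = 0.00297), against a Control mean of 1.21 FPKM.

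Several matrix proteases rose, and their measured inhibitors were not called. Of 18 measured members, 7 rose, all proteases, beside 12.1% of all genes. None fell, and the median was 0.44. With the 5 libraries left out 4 rose and 1 fell. Mmp14, the membrane-bound collagenase that activates other proteases, was at 101, 105 and 89.1 FPKM and then 217, 147 and 230 FPKM. The groups did not overlap, and Mmp14 rose by 0.98 (adjusted p = 0.00396). Mmp2, the gelatinase it activates, rose by 0.79 (adjusted p = 0.0113, and 0.0537 with the 5 libraries left out), and Mmp23 by 1.15 (adjusted p = 0.00195). Fap, a protease on the surface of activated fibroblasts, rose by 1.07 from 19.2, 41.7 and 25.9 FPKM to 61.4, 58.5 and 56.9 FPKM (adjusted p = 0.00473). Adamts16 rose by 1.44 (adjusted p = 0.00361). The inhibitor Timp1 was at 856, 434 and 286 FPKM in MMS D3 and 597, 565 and 493 FPKM in MMS D7, so MMS D3 samples lay on both sides of MMS D7 (0.21, adjusted p = 0.657). Timp3 stood at -0.66 (adjusted p = 0.0917) and Timp4 at -0.77 (adjusted p = 0.0509). Timp4 was called lower with the 5 libraries left out (adjusted p = 0.0408).

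**Figure D2:**
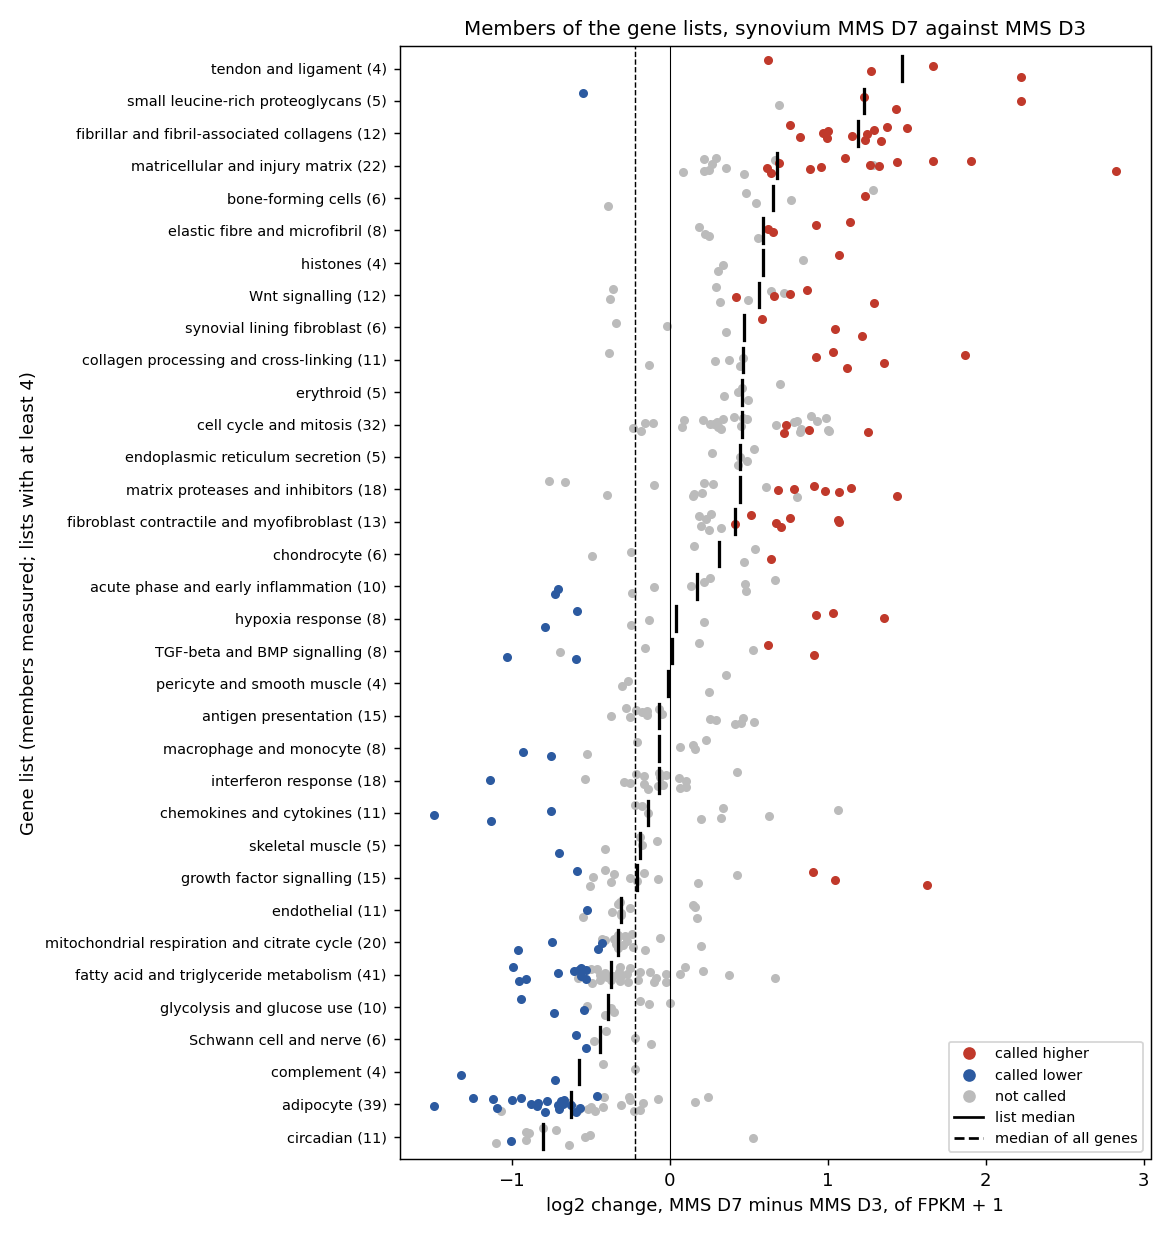
Log2 change of FPKM + 1, MMS D7 minus MMS D3, for every measured member of the lists with at least 4 members, ordered by list median; points are genes, red called higher, blue called lower and grey not called. The collagen members all lie from 0.76 to 1.5004, the adipocyte members have a median of -0.62, and the dashed line is the median of all genes at -0.22.

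Among all genes 12.1% were called higher and 18.3% lower, and the contractile and signalling lists are given beside these shares. Of 13 measured contractile and myofibroblast genes, 7 rose (53.8%) and 0 fell, with a median of 0.41, and 2 rose with the 5 libraries left out. That count was 3 without MMS D3 replicate 2 and 1 without MMS D3 replicate 3 or MMS D7 replicate 3. Itga11, a collagen receptor of fibroblasts, rose by 1.06 (adjusted p = 0.0131), but not without MMS D3 replicate 3 or MMS D7 replicate 3 (up to 0.0737), nor with the 5 libraries left out (0.0538). Among 12 measured Wnt genes 5 rose (41.7%) and 0 fell, with a median of 0.57; 2 rose with the 5 libraries left out. The Wnt count was 1 without MMS D3 replicate 3 and 3 without MMS D7 replicate 2. Dkk3, a secreted relative of Wnt inhibitors, was at 13.9, 19.9 and 15.2 FPKM in MMS D3 and 42.4, 28.9 and 56.4 FPKM in MMS D7. The groups were well apart, and Dkk3 rose by 1.29 (adjusted p = 0.00101). Ror2, a receptor for Wnt5a, rose by 0.76 (adjusted p = 0.00826), a call lost without MMS D3 replicate 3 (0.0515) and with the 5 libraries left out (0.0539). In the TGF-beta and BMP list of 8, 2 rose and 2 fell. The rises numbered 4 without MMS D3 replicate 1; the falls numbered 0 without MMS D3 replicate 2, MMS D3 replicate 3 or MMS D7 replicate 1, and 1 without MMS D7 replicate 2 or MMS D7 replicate 3. Fstl1, a secreted glycoprotein of fibroblasts, rose by 0.91 from 243, 209 and 167 FPKM to 329, 344 and 502 FPKM (adjusted p = 0.00202). Fst, the activin inhibitor follistatin, fell by 1.03 from 14.2, 19.9 and 18.7 FPKM to 8.11, 6.60 and 9.62 FPKM (adjusted p = 0.0228). The Fst call was lost without MMS D3 replicate 2, MMS D3 replicate 3, MMS D7 replicate 1 or MMS D7 replicate 2 (adjusted p up to 0.0818).

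Cell cycle genes were called higher at about the share of all genes. Of 115 listed, 32 were measured, 4 rose (12.5%, beside 12.1% of all genes) and 0 fell, with a median of 0.46. The division into phases was made after values were seen. The 19 genes of mitosis and cell division had changes of 0.28 to 1.25 with a median of 0.74, and they include the 4 that rose. The 8 genes of DNA replication and nucleotide supply had changes of -0.23 to 0.41 with a median of -0.01, and 0 were called. The remaining measured members belonged to neither phase, and the difference between these groups of genes was not tested. The summed level of the 32 was 169 to 468 FPKM in MMS D3, 405 to 540 FPKM in MMS D7 and 105 to 114 FPKM in Control. With the 5 libraries left out 0 of 32 were called and the median was 0.09, with 0.24 for the mitosis genes and -0.42 for the replication genes. In fits leaving out 1 library the count was 19 without MMS D3 replicate 1, 2 without MMS D3 replicate 2, MMS D7 replicate 1 or MMS D7 replicate 2, and 0 without MMS D3 replicate 3 or MMS D7 replicate 3.

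Ccnb2, the B-type cyclin that drives entry into mitosis, was at 12.8, 10.2 and 2.41 FPKM in MMS D3 and 15.0, 18.5 and 21.7 FPKM in MMS D7. MMS D3 replicate 3 was far below the other samples, the groups did not overlap, and the rise was 1.25 ± 0.4 (SE, n = 3 per group; adjusted p = 0.0284). Cenpa, the histone H3 variant of centromeres, was at 12.1, 8.73 and 7.21 FPKM and then 13.7, 14.1 and 28.7 FPKM, a rise of 0.88 (adjusted p = 0.014). Anln, which organises the contractile ring, rose by 0.72 (adjusted p = 0.0284). Kif23, a motor of the dividing cell's midzone, rose by 0.74 from 4.52, 4.25 and 1.17 FPKM to 4.74, 6.03 and 6.20 FPKM (adjusted p = 0.0434). All 4 calls were lost with the 5 libraries left out (adjusted p 0.263 for Ccnb2, 0.169 for Cenpa, 0.169 for Anln and 0.285 for Kif23). In the same order, adjusted p was up to 0.151, 0.0726, 0.155 and 0.238 when 1 library was left out. Kif23 was also not called with a pseudocount of 0.1 (0.0508). Mcm5, a subunit of the helicase that opens DNA for replication, was at 16.3, 8.60 and 5.54 FPKM in MMS D3 and 7.90, 8.89 and 8.91 FPKM in MMS D7. MMS D7 lay inside the range of MMS D3 for Mcm5, with a change of -0.11 (adjusted p = 0.776). Rrm2, a subunit of ribonucleotide reductase, also overlapped between groups (0.21, adjusted p = 0.579).

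Promoters of these genes are shown because a pair of short motifs known from cell cycle promoters recurs in them. RefSeq promoter windows on GRCm38.p6, from 250 bases before to 50 after the gene's start, were matched for 26 of the 32 measured cell cycle genes. Searched on both strands were CCAAT, the CCAAT box, and TTTGAA, the letters of the cell cycle homology element known from late cell cycle genes; neither motif overlaps the other in its letters. CCAAT was found in 20 of the 26 windows (76.9%), against 37.9% of 27025 gene windows in the table. TTTGAA was found in 18 of the 26 (69.2%), against 18.1% of all. Of the 10 matched collagen windows, 3 held CCAAT and 1 held TTTGAA. For adipocyte genes only 25 of 39 were matched, too few for a share. These matches are descriptions of letters, not of bound sites. The shares against all windows describe the list of cell cycle genes, not the change from MMS D3 to MMS D7. The windows of the 4 genes that rose and of Mcm5 follow, 5′ to 3′ on each gene's strand, with matches to either motif on either strand in capitals.
Ccnb2 (chr9:70421505-70421804, minus strand): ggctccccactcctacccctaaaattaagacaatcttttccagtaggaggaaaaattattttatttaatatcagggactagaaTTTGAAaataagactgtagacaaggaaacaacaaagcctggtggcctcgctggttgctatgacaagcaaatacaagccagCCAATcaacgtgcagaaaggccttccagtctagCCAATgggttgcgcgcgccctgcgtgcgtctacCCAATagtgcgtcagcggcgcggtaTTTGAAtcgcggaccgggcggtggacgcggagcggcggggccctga
Cenpa (chr5:30666636-30666935, plus strand): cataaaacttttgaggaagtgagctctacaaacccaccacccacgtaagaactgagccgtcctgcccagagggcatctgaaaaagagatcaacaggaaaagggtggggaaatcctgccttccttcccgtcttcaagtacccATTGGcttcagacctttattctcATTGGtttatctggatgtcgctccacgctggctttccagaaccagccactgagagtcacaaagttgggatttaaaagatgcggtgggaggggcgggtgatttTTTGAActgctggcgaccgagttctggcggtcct
Kif23 (chr9:61946750-61947049, minus strand): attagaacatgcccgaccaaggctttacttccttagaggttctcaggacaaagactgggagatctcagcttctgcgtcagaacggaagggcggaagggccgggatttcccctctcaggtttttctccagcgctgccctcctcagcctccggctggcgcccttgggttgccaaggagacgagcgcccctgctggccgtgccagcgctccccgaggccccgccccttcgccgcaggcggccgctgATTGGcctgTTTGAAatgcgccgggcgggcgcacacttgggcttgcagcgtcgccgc
Anln (chr9:22389157-22389456, minus strand): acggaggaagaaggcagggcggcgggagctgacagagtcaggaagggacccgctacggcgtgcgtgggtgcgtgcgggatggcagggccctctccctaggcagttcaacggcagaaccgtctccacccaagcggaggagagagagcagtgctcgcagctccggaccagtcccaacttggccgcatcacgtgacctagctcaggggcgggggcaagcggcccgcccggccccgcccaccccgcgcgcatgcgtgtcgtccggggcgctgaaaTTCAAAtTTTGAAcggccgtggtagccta
Mcm5 (chr8:75109259-75109558, plus strand): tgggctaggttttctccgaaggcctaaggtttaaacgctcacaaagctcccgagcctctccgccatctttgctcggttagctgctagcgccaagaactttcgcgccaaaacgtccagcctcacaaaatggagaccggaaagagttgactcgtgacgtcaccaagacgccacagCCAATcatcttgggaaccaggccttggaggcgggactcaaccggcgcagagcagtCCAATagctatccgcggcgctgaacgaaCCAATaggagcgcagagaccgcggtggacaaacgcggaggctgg

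Of the 4 windows of genes that rose, 4 held TTTGAA and 3 held CCAAT, all but Anln. Of the 22 matched windows of cell cycle genes that were not called, 14 held TTTGAA and 17 held CCAAT. Mcm5, one of the uncalled genes, had 3 CCAAT matches and no TTTGAA match.

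**Figure D3:**
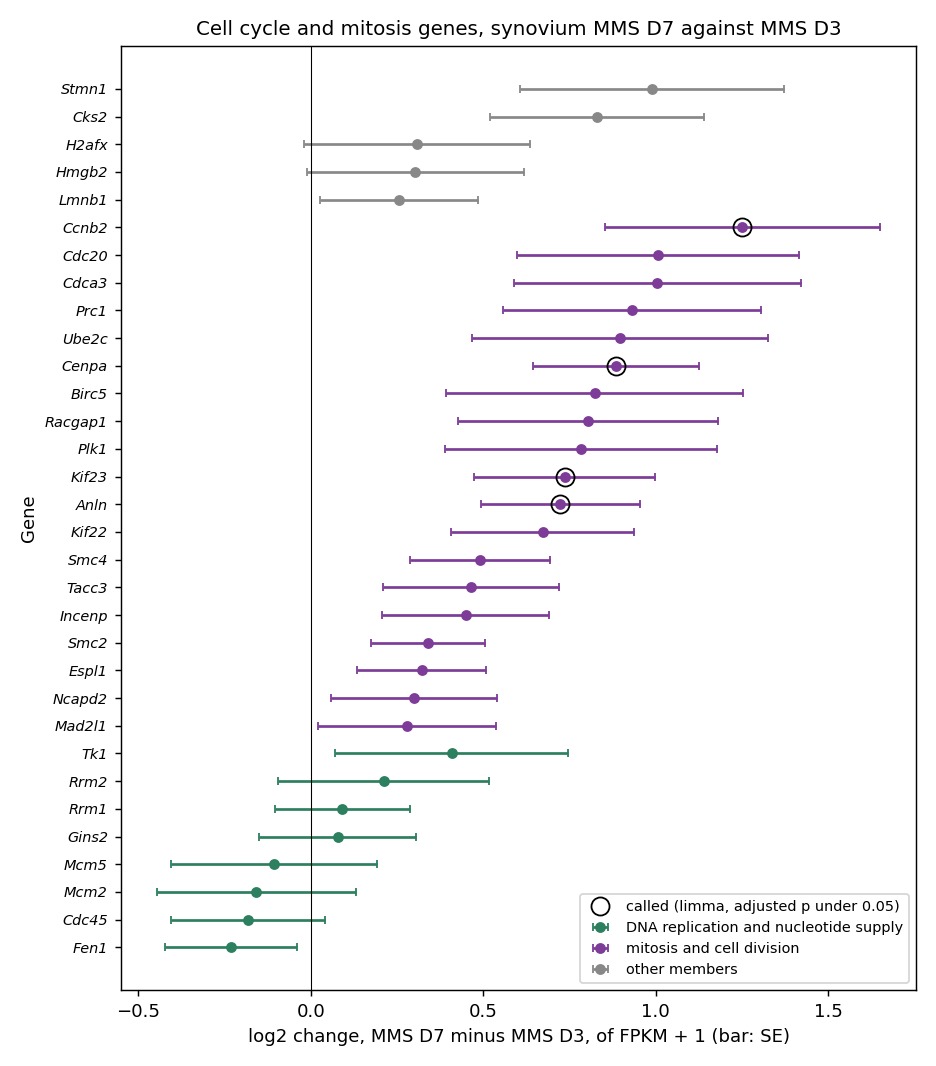
Log2 change of FPKM + 1, MMS D7 minus MMS D3, with SE bars for the 32 measured cell cycle genes, coloured by phase; circles mark the 4 called genes. Mitosis genes run from 0.28 to 1.25 and DNA replication genes from -0.23 to 0.41.

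Many fat cell genes fell. Of 41 listed adipocyte genes 39 were measured, 21 fell (beside 18.3% of all genes) and 0 rose, with a median of -0.62. In 22 of the 39 the groups did not overlap, beside 41.3% of all genes. The count of falls was 17 after centring and 12 with the 5 libraries left out. It was 9 without MMS D3 replicate 2, 12 without MMS D3 replicate 3 and 10 without MMS D7 replicate 3. The summed adipocyte level was 43352 to 52392 FPKM in Control, 21720 to 36112 FPKM in MMS D3 and 18595 to 21195 FPKM in MMS D7. The MMS D7 samples lay below all MMS D3 samples, and MMS D3 below Control. Beside this, the summed level of 5 measured erythroid genes was 2657 to 2941 FPKM in MMS D3 and 2690 to 6321 FPKM in MMS D7, with 0 called. The summed level of 11 endothelial genes was 3354 to 8895 FPKM in MMS D3 and 3769 to 5554 FPKM in MMS D7, with 1 called lower. These genes include Fabp4, which is also in the adipocyte list, so the endothelial sum is not separate from the adipocyte sum. For 5 skeletal muscle genes the sum was 4519 to 7041 FPKM in MMS D3 and 3150 to 4025 FPKM in MMS D7. All 5 changes were negative, with a median of -0.19, and 1 was called lower. Most of the muscle sum was Car3, which is also a fat cell gene (4488, 7007 and 6683 FPKM, then 3999, 3920 and 3119 FPKM). Myl1, a myosin light chain of fast muscle, stood at -0.08 (adjusted p = 0.891). The part of these cell types in the result was not tested.

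Within the adipocyte list, genes were grouped by role after values were seen. Of 7 genes of the lipid droplet and its breakdown, 6 fell, beside 18.3% of all genes, with a median of -0.77. The count was also 6 after centring and with the 5 libraries left out. Cidec, which fuses lipid droplets, was at 437, 596 and 634 FPKM in MMS D3 and 349, 349 and 235 FPKM in MMS D7. Every MMS D7 sample was below every MMS D3 sample, and Cidec fell by 0.84 (adjusted p = 0.0053). Lipe, hormone-sensitive lipase, fell by 0.83 from 409, 545 and 516 FPKM to 319, 332 and 191 FPKM (adjusted p = 0.00531). Slc2a4 encodes GLUT4, the glucose transporter that answers to insulin. It fell by 0.94 from 56.8, 77.1 and 87.99 FPKM to 36.7, 39.6 and 36.2 FPKM (adjusted p = 0.00568). Of 5 genes of proteins secreted by fat cells, Retn alone was called, with a median of -0.42. Adipoq, adiponectin, was at 818, 1279 and 1111 FPKM in MMS D3 and 891, 785 and 625 FPKM in MMS D7. The Adipoq groups overlapped, and it was not called (-0.47, adjusted p = 0.0594). Lep, leptin, was at 16.5, 21.5 and 18.5 FPKM and then 12.2, 13.9 and 26.2 FPKM, again with overlap (-0.17, adjusted p = 0.69).

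Of 41 measured genes of fatty acid and triglyceride metabolism, 10 fell (24.4%, beside 18.3% of all genes) and 0 rose, with a median of -0.37. After centring 6 fell, and with the 5 libraries left out 3 did. The count was 21 without MMS D3 replicate 1, 4 without MMS D3 replicate 2, 2 without MMS D3 replicate 3, 6 without MMS D7 replicate 1 and 4 without MMS D7 replicate 3. Slc27a1, a fatty acid transport protein, fell by 0.99 from 196, 272 and 272 FPKM to 144, 152 and 83.1 FPKM (adjusted p = 0.00361). Acsl1, which activates fatty acids, fell by 0.91 (adjusted p = 0.0113, and 0.0544 with the 5 libraries left out). Acsl1 was also not called without MMS D3 replicate 3 or MMS D7 replicate 3 (up to 0.0633). Fatty acid synthesis genes showed no shared direction. Of 10, 2 fell with a median of -0.02, namely Mlxipl, a glucose-sensing transcription factor (-0.53, adjusted p = 0.0105; 0.0611 with the 5 libraries left out), and Acacb, an acetyl-CoA carboxylase named after its values were seen (-0.95, adjusted p = 0.0319). Acacb was not called after centring (0.0624), with the 5 libraries left out (0.127), or without MMS D3 replicate 2, MMS D3 replicate 3, MMS D7 replicate 1 or MMS D7 replicate 3 (up to 0.155). Fasn, fatty acid synthase, was at 112, 145 and 433 FPKM in MMS D3 and 153, 176 and 250 FPKM in MMS D7. MMS D3 replicate 3 was its highest sample, and the groups overlapped (-0.03, adjusted p = 0.964). Acss2, which makes acetyl-CoA from acetate, was at 8.79, 12.6 and 13.8 FPKM and then 17.6, 20.9 and 18.4 FPKM. Its groups did not overlap, yet it was not called (0.67, adjusted p = 0.11), and its Control mean was 83.6 FPKM. Of 13 fatty acid oxidation genes 2 fell, with a median of -0.32, which is near the -0.22 of all genes. Of 10 glucose use genes 3 fell, beside 18.3% of all genes, and 5 did so without MMS D3 replicate 1. They include the glycogen synthase gene Gys1 (-0.73, adjusted p = 0.00389).

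The immune lists held 0 to 3 called genes each, and 18.3% of all genes were called lower. Cxcl13, the chemokine that attracts B cells, was at 12.4, 15.5 and 22.3 FPKM in MMS D3 and 4.44, 6.21 and 4.92 FPKM in MMS D7. The groups were far apart, and Cxcl13 fell by 1.49 ± 0.288 (SE, n = 3 per group; adjusted p = 0.00226). In the chemokine and cytokine list of 11, 3 fell (27.3%) and 0 rose, and these were Cxcl13, Ccl11 and Il1r2. Il1r2, the decoy receptor for interleukin 1, fell by 0.75 from 6.12, 5.94 and 6.27 FPKM to 3.05, 3.69 and 2.99 FPKM (adjusted p = 0.00799). Ccl8, a monocyte attractant, was at 62.8, 125 and 64.2 FPKM and then 123, 112 and 136 FPKM, and was not called (0.63, adjusted p = 0.148). Of 3 measured neutrophil genes 2 fell, Il1r2 and Prtn3, and the summed level was 38.2 to 52.3 FPKM in MMS D3, 23.6 to 27.96 FPKM in MMS D7 and 22.7 to 24.8 FPKM in Control. Prtn3, a neutrophil granule protease, fell by 0.80 (adjusted p = 0.0201), but was not called without MMS D3 replicate 2 or MMS D7 replicate 3 (up to 0.0975). Of 8 macrophage genes 2 fell, with a list median of -0.07. They were the lectin gene Clec10a (-0.75, adjusted p = 0.0143; up to 0.0714 without MMS D3 replicate 2 or MMS D7 replicate 1) and Gpnmb, a glycoprotein of lipid-laden macrophages. Gpnmb fell by 0.93 (adjusted p = 0.0143), with 0.231 when the 5 libraries were left out and up to 0.0842 without MMS D3 replicate 3 or MMS D7 replicate 3. Among 15 antigen presentation genes 0 were called, with changes of -0.37 to 0.53, 1 gene under an unadjusted p of 0.05, and 1 gene called higher after centring. Among 18 interferon genes 1 was called, the fall of Ifi27l2a given above, and the list median was -0.07.

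A few genes of the lining fibroblasts rose. Of 6 measured, 3 rose, beside 12.1% of all genes, and 0 fell. Of the 6 changes 4 were positive and 2 negative, the lowest at -0.34. The counts of calls were equal after centring and with the 5 libraries left out. Without MMS D3 replicate 1, 4 rose and 1 fell. The rises numbered 2 without MMS D3 replicate 2, MMS D3 replicate 3, MMS D7 replicate 1 or MMS D7 replicate 2. Clic5, a chloride channel protein of the lining, lies on chromosome 17 from 44188584 to 44280172. It was at 22.7, 20.5 and 18.9 FPKM in MMS D3 and 55.8, 63.01 and 34.2 FPKM in MMS D7, under a Control mean of 123 FPKM. MMS D7 replicate 3 was the lowest of its group yet above all MMS D3 samples, and Clic5 rose by 1.22 ± 0.196 (adjusted p = 0.000685). Hbegf, an EGF-like growth factor made by lining cells, was at 59.9, 42.4 and 40.8 FPKM and then 92.4, 91.4 and 112 FPKM, with a Control mean of 162 FPKM. Hbegf rose by 1.05 ± 0.163 (adjusted p = 0.000571) with no overlap. Tspan15, a membrane scaffold protein, rose by 0.58 (adjusted p = 0.0263), but was not called without MMS D3 replicate 2, MMS D3 replicate 3, MMS D7 replicate 1 or MMS D7 replicate 2 (up to 0.109). Has2, a hyaluronan synthase of the lining, was not called (0.36, adjusted p = 0.285). The summed level of the 6 genes was 387 to 592 FPKM in MMS D3, 480 to 597 FPKM in MMS D7 and 633 to 811 FPKM in Control.

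Nearly all called genes moved in the direction in which MMS D14 differed from Control, a comparison that shares no sample with this one and on which the gene selection bears. By fitted means, 337 genes were higher and 841 lower in MMS D14 than in Control, with 1142 of 1178 called (96.9%). Of the 142 genes called higher at MMS D7, 135 were among the D14-high genes; of the 216 called lower, 215 were among the D14-low genes. The median change from MMS D3 to MMS D7 was 0.51 for D14-high genes and -0.35 for D14-low genes, and 0.66 and -0.20 after centring. The share called was 40.1% of D14-high genes called higher and 25.6% of D14-low genes called lower. The lists above stand beside all genes, not beside these shares. Called higher were 38.9% of matrix protease and inhibitor genes, 41.7% of Wnt genes and 45.5% of collagen-modifying genes. For matricellular genes and collagens it was 54.5% and 100%. Called lower were 24.4% of fatty acid and triglyceride genes and 53.8% of adipocyte genes. List members were not split into D14-high and D14-low.

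The 8 called genes that went the other way were Clic5, Hbegf, Tspan15, Pkp1, Hist2h2aa1, Sfrp4, Aldh1a3 and Cxcl13, and those not described above were singled out after their values were seen. The first 7 rose from MMS D3 to MMS D7 although their fitted mean was lower in MMS D14 than in Control. The desmosome gene Pkp1 averaged 7.42 FPKM in Control, 1.8 in MMS D3, 3.78 in MMS D7 and 4.24 in MMS D14, and rose by 0.77 (adjusted p = 0.00304). The replication-linked histone gene Hist2h2aa1, which has near-identical copies, so that its level is uncertain, averaged 95.8, 14.99, 31.2 and 23.4 FPKM in the same order and rose by 1.07 (adjusted p = 0.00531). The Wnt-binding protein gene Sfrp4 averaged 62.8, 32.6, 55.6 and 52.6 FPKM. The difference of Sfrp4 between MMS D14 and Control was itself not called (-0.23, adjusted p = 0.4). Sfrp4 had overlapping samples, and its call (0.87, adjusted p = 0.0254) was lost with the 5 libraries left out (0.0947). It was also lost without MMS D3 replicate 1, MMS D3 replicate 3, MMS D7 replicate 1 or MMS D7 replicate 2 (up to 0.111). Aldh1a3, an enzyme that makes retinoic acid, rose by 0.53 (adjusted p = 0.0317) with overlapping samples. Aldh1a3 was not called without MMS D3 replicate 2, MMS D3 replicate 3, MMS D7 replicate 1 or MMS D7 replicate 2 (up to 0.151). Cxcl13 alone was lower at MMS D7 than at MMS D3 while higher in MMS D14 than in Control, with means of 8.45 FPKM in Control, 16.8 in MMS D3, 5.19 in MMS D7 and 12.8 in MMS D14.

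**Figure D4:**
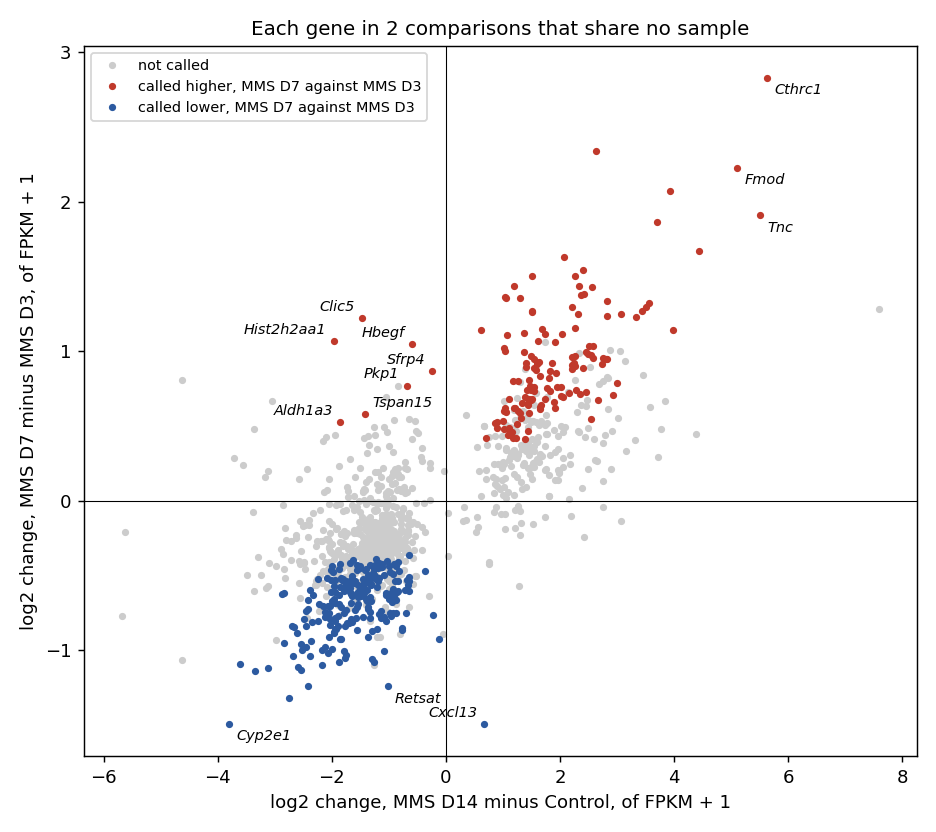
Each point is a gene, with its log2 change of FPKM + 1 between MMS D14 and Control on the horizontal axis and between MMS D7 and MMS D3 on the vertical axis; red genes were called higher at MMS D7, blue lower, grey not called. Of the called genes, 135 lie upper right and 215 lower left, and the labelled points upper left and lower right are the 8 that went the other way.

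When only the MMS D3 and MMS D7 samples were fitted, the estimate of the spread rested on 6 samples. Of the genes described above as called, Clec11a, Rasd1, Ccl11, Mfap2, Ltbp1, Mmp2, Podn, Ccnb2, Cenpa, Anln, Kif23, Cidec, Lipe, Acsl1, Mlxipl, Acacb, Gys1, Clec10a, Gpnmb, Prtn3, Tspan15, Sfrp4 and Aldh1a3 were not called in that fit. Their adjusted p then lay between 0.0523 for Mfap2 and 0.163 for Aldh1a3. The others, among them Cthrc1, Thbs4, Col6a3, Col3a1, Pnpla2, Retsat, Clic5, Hbegf and Cxcl13, were called.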

How the data were processed

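RNA was extracted with Trizol and libraries were made by BGI's standard protocol, per the labels' protocols. Reads were aligned with HISAT2 to mm10, per the submitters' processing notes; the quantifier and the rule that selected 1178 genes are not given in the sources used here. The authors deposited the synovium values as FPKM, per the file headers, for 18 samples in 6 groups of 3. Groups follow the intervention label. No read counts were used here, so depth is unknown and the number of replicates limits the precision.

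FPKM as deposited, with a pseudocount of 1, was log2-transformed. A filter of at least 1 FPKM in at least 3 samples removed 0 genes, and the lowest value was 0.55. All 6 synovium groups were fitted in limma 3.58.1 (R 4.3.3) with a variance trend, MMS D7 minus MMS D3 was tested two-sided, and adjustment was by the Benjamini-Hochberg method over 1178 genes. Identical values between any pair of samples made up at most 0.509%.

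Members, lists, tests and the naming rule were chosen with earlier results of these data known. The rule named called genes whose groups did not overlap, with a mean log2 level above the median of tested genes and a symbol that is neither a predicted model nor a date. It took the 12 largest rises and the 12 largest falls, plus up to 5 members per list by adjusted p, and any member for its value where it was not called. There were 42 gene lists, and 1 more, for branched-chain amino acid breakdown, was added after values were seen. GENCODE vM21 (GRCm38) gave gene positions, and RefSeq (GRCm38.p6) gave promoters.

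Alternatives were a pseudocount of 0.1, each sample centred on its own median, no trend, no filter, an absolute log2 change of at least 1, the 2 groups fitted alone, replicate numbers as a block, and leaving out each library. A term for the 5 libraries in which Gm2023 was under 5 FPKM, and their omission, were alternatives added after seeing the data. The fit was tested on simulated data. Python 3.11.15, pandas 2.3.3, numpy 2.4.6 and matplotlib 3.10.9 were used.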

Additional observations from a re-analysis of the deposited data

How the results depend on the processing

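With 3 samples per group and unknown depth, the precision rests on the spread between samples. The count of 358 called genes became 116 when only the 2 groups were fitted (73 higher, 43 lower), 186 with the 5 libraries low in Gm2023 left out (88 higher, 98 lower) and 69 at an absolute log2 change of at least 1. Centring gave 302, with 112 lower, and a term for the 5 libraries gave 518, with 330 lower. Leaving out 1 library gave 147 to 597 called, 73 to 219 higher and 70 to 378 lower, and a median change of all genes of -0.32 to -0.16, beside -0.22 in the full fit and -0.066 after centring. The cause of these movements was not tested. A pseudocount of 0.1 gave 352 called, no filter 358 and no trend 361. With the replicate number as a block, 483 genes were called (183 higher, 300 lower). Same-numbered samples deviated together with correlations of -0.07, 0.43 and 0.08 for replicates 1, 2 and 3, and not every sample correlated best with its own number, so the numbers were not taken to pair samples. Of the 24 named genes, 0 reversed under any alternative run. The naming rule required groups that do not overlap, so leaving out libraries could not reverse them. All 24 were called with the block and with the term, 22 after centring, 23 with the pseudocount of 0.1, 21 with only the 2 groups, 17 with the 5 libraries left out, and 17 to 24 with 1 library left out. All gene lists with at least 1 measured member were recounted under each alternative, and their counts moved by over 1.5 times most often when only the 2 groups were fitted, in 29 of 82.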

Other observations

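Genes that break down the branched-chain amino acids leucine, isoleucine and valine formed a list that was drawn up after values were seen. Of 25 listed, 17 were measured, 8 fell and 0 rose, all 17 changes were negative, and the median was -0.44, beside -0.22 for all genes and 18.3% called lower. Bcat2, the mitochondrial aminotransferase that takes the first step, was at 76.1, 111 and 93.0 FPKM in MMS D3 and 58.3, 58.9 and 37.1 FPKM in MMS D7. The groups did not overlap, and Bcat2 fell by 0.86 ± 0.187 (SE, n = 3 per group; limma, adjusted p = 0.00432). Aldh6a1, the dehydrogenase at the end of valine breakdown, fell by 0.96 from 79.9, 124 and 146 FPKM to 66.8, 65.3 and 44.2 FPKM (adjusted p = 0.00871). It was not called without MMS D3 replicate 3 (0.0504) or with the 5 libraries left out (0.0736). The list's count was 4 after centring and 2 with the 5 libraries left out. It was 16 without MMS D3 replicate 1, 3 without MMS D3 replicate 2, 2 without MMS D3 replicate 3 or MMS D7 replicate 3, and 5 without MMS D7 replicate 1 or replicate 2. The summed level was 721 to 1102 FPKM in MMS D3 and 568 to 658 FPKM in MMS D7, against 1249 to 1404 FPKM in Control. Beside this, the summed level of the 39 adipocyte genes was 21720 to 36112 FPKM in MMS D3 and 18595 to 21195 FPKM in MMS D7, and its part in the result was not tested. Bcat2 and Aldh6a1 were not called when only the 2 groups were fitted (0.0534 and 0.0517).

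Clock and clock-output genes had a median of -0.80 over 11 measured genes, and of -0.42 with the 5 libraries left out. Of these 11, 1 was called lower, Fmo2, a flavin-containing monooxygenase that is not a core clock gene (-1.003, adjusted p = 0.0429). Fmo2 was not called after centring (0.0826), and of the 6 fits that leave out 1 library it was called only without MMS D3 replicate 1 (up to 0.156 in the others). In 7 of the 11 genes the groups did not overlap, beside 41.3% of all genes. The core clock gene Per1 was at 32.5, 34.1 and 42.1 FPKM in MMS D3 and 18.6, 21.6 and 16.9 FPKM in MMS D7, with no overlap, and was not called (-0.89, adjusted p = 0.118). Dbp, a clock output gene, was at 83.7, 112 and 97.7 FPKM and then 70.8, 89.6 and 13.8 FPKM, so that MMS D7 replicate 3 stood far below the rest (-1.10 ± 0.843, adjusted p = 0.299). With the 5 libraries left out 3 of the 11 were called lower. The labels give no time of day for the samples.

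Vegfa, the main growth factor of blood vessels, fell by 0.59 from 65.8, 74.5 and 81.4 FPKM to 52.4, 51.8 and 42.5 FPKM (adjusted p = 0.0157), with 0.074 when the 5 libraries were left out and up to 0.0708 without MMS D3 replicate 2, MMS D3 replicate 3 or MMS D7 replicate 3. Vegfa was not called when only the 2 groups were fitted (0.0951). Il1rl1, the receptor of interleukin 33, was not called (1.06, adjusted p = 0.0719), at 3.23, 1.89 and 1.36 FPKM in MMS D3 and 8.69, 3.30 and 5.32 FPKM in MMS D7.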
